A study of Mus with 2 samples.

Results

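Macrophages instruct T cells through surface proteins, and 10 genes listed for that role are described here. They include the costimulatory ligands Cd80, Cd86 and Icosl, the B7 family protein Cd276 and the receptor Cd40. The others are the PD-1 ligands Cd274 and Pdcd1lg2, the receptors Havcr2 and Cd200r1, and the lectin Lgals9. The 10 genes were chosen by name, with earlier results of these data known. All 10 genes had a probe, out of 20144 genes that had one, and they were read by 11 probes, 2 of them for Cd80. Cells were BMDMs, macrophages grown from the bone marrow of 10-week-old male C57BL6/J mice for 7 d in M-CSF at 10 ng/mL. Both cultures then received IL-4 at 10 ng/mL for 24 h, which drives M2 polarization, together with either 10 µM GW4064, a synthetic FXR agonist, or DMSO, its solvent. The 2 groups shared strain, sex, M-CSF and IL-4, and there was no culture without IL-4 among these arrays. Each group was 1 one-color Agilent array, so no replicate error and no p-value can be given, and having 2 arrays in all limits how precise any difference can be. The labels do not say how many mice the cultures came from or whether the cultures were independent. The free-text description of the GW4064 sample repeats that of the DMSO sample, so its group was taken from its treatment label and title.

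A T cell needs a second signal besides antigen. CD80 and CD86 give it through CD28, and the same ligands restrain T cells through CTLA-4. PD-L1 and PD-L2 restrain T cells through PD-1, ICOSL sustains helper T cells through ICOS, and CD40 on the macrophage receives the signal of CD40 ligand from the T cell. TIM-3 and CD200R1 are inhibitory receptors that macrophages themselves carry. In macrophages, CD80, CD86 and CD40 are best known from inflammatory activation, whereas PD-L2 and CD200R1 are known from activation by IL-4.

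Signals below are the brightness of a spot after the scanner software had subtracted the background, with the error that the software estimated for that spot. Differences are on the log2 scale, GW4064 minus DMSO, after the 75th percentile of each array was set to 0, and 2-fold or more was taken as a called difference. As a measure of technical spread, the SD of the log2 difference over the copies of probes printed 10 times was taken from the 40 such probes nearest in level. It ranged from 0.065 to 0.15 at the levels of the members and leaves out all variation between cultures. All 11 member probes were printed once, were well above background on both arrays and carried no mark of an uneven or outlying spot. In 16.5% of spots, 2 or more other spots within 300 µm differed 8-fold or more between the arrays, and the probes for Cd274 and Cd200r1 lay in such areas. The only probe for the FXR gene Nr1h4 did not stand well above background with DMSO or with GW4064. The paper detected Nr1h4 mRNA in BMDMs by real-time PCR, so the dim probe does not show that the gene was off.

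Of the 10 genes, 2 were 2-fold or more lower with GW4064, namely Icosl and Cd276, and 0 were 2-fold or more higher. Among the 13532 genes measured, 2.71% passed 2-fold as lower and 2.04% as higher (3.86% and 1.56% when centered on spike-in RNA). All members were measured on both arrays, and among the 12578 genes with that property the shares were 1.30% and 0.851%. The log2 differences of the members ran from -1.47 to 0.13 with a median of -0.21, beside a median of 0.0068 over all genes measured. Below 0 were 48.2% of all genes measured and 48.8% of those on both arrays. These shares are the background for the counts of higher and lower genes in the lists as processed here. They do not serve for counts centered on spike-in RNA, where the median of all genes was -0.18. The share of all genes below 0 under that centering was not counted. Havcr2 was 1.71-fold lower and Pdcd1lg2 1.33-fold lower, while the other 6 genes lay within 0.3 of 0 on the log2 scale. Without Icosl and Cd276 the median of the 8 other members was -0.079. The error ranges of the arrays did not overlap for 4 of the 11 probes, those for Icosl, Cd276, Havcr2 and Pdcd1lg2. The software error rose with the signal, with DMSO from 48.5 at 483 (Cd40) to 384 at 3836 (Cd274). Ranges that do not overlap thus restate the size of a difference and are no separate support. The share of all probes with such ranges was not counted.

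**Figure D1:**
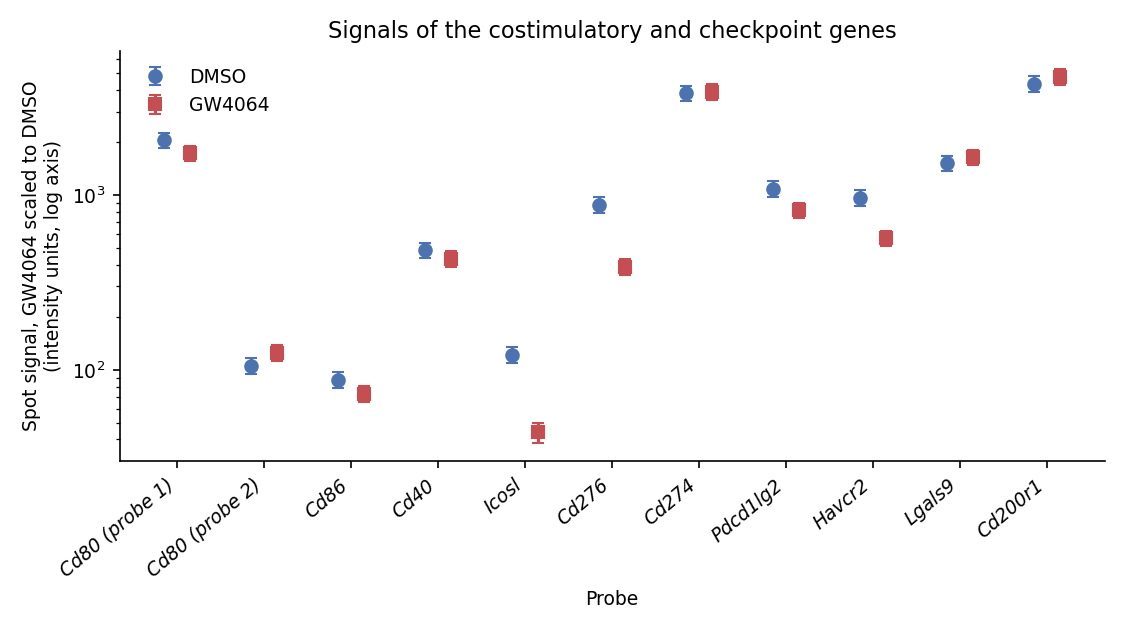
Spot signal (intensity units, log axis) of each of the 11 member probes with DMSO (circles) and with GW4064 (squares, scaled to the 75th percentile of the DMSO array), with bars for the error of the spot as estimated by the scanner software. The bars do not overlap for Icosl, Cd276, Pdcd1lg2 and Havcr2 and overlap for the other 7 probes; heights of different probes are not comparable.

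Cd80 and Cd86 encode B7-1 and B7-2, the ligands of CD28 and CTLA-4. The brighter of the probes for Cd80 had a signal of 2056 ± 206 with DMSO and 1815 ± 182 with GW4064, a log2 difference of -0.25. The dimmer probe, matched to the same transcript NM_009855, had 106 ± 11.3 with DMSO and 131 ± 13.6 with GW4064, a log2 difference of 0.24. The probes for Cd80 thus pointed in opposite directions, and their mean of -0.00029 hides both. For Cd86 the signal was 87.7 ± 9.34 with DMSO and 76.4 ± 8.23 with GW4064, a log2 difference of -0.26 at a level where the SD over copies was 0.14. None of these 3 probes had error ranges that separated the arrays.

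Cd40 encodes a receptor of the TNF receptor superfamily, through which helper T cells license antigen-presenting cells. Its signal was 483 ± 48.5 with DMSO and 454 ± 45.5 with GW4064, a log2 difference of -0.16, with an SD over copies of 0.076 at that level. The error ranges overlapped.

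Icosl encodes the ligand of ICOS and showed the largest difference of the 10 genes as processed here, though not after the normexp correction. Its signal was 122 ± 12.9 with DMSO and 46.3 ± 6.05 with GW4064, which made it 2.76-fold lower, a log2 difference of -1.47 with an SD over copies of 0.15 at that level. The raw median brightness of the spot was 134 over a local background of 15 with DMSO and 72.5 over 12 with GW4064. Ordered from the largest decrease, Icosl was number 55 of the 12578 genes measured on both arrays. The signal was low, and among the 2020 probes within 0.5 log2 units of its level 3.96% were also 2-fold or more lower. When the background was corrected by normexp (offset 50), a step that compresses low signals, Icosl had a log2 difference of -0.65, or 1.57-fold lower, and no longer passed 2-fold, behind Cd276 with -1.02 and Havcr2 with -0.72. Under the other 10 ways of processing that were tried its log2 difference lay between -1.66 and -1.39.

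Cd276 encodes B7-H3, a B7 family protein that is found on many cell types outside the immune system as well. Its signal was 882 ± 88.3 with DMSO and 408 ± 41.0 with GW4064, which made it 2.26-fold lower, a log2 difference of -1.18 against an SD over copies of 0.067. The raw median brightness was 863 over a local background of 18.5 with DMSO and 430 over 18 with GW4064. Cd276 was number 101 among the 12578 genes in order of decrease, and 0.700% of the 2142 probes at a like level were 2-fold or more lower. It was 2-fold or more lower under all 11 of these ways of processing, with log2 differences between -1.37 and -1.02. Neighboring spots that were well above background within 300 µm had a median log2 difference of -0.026 around Icosl (36 spots) and -0.082 around Cd276 (29 spots), and 0 of the spots around either differed 8-fold.

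**Figure D2:**
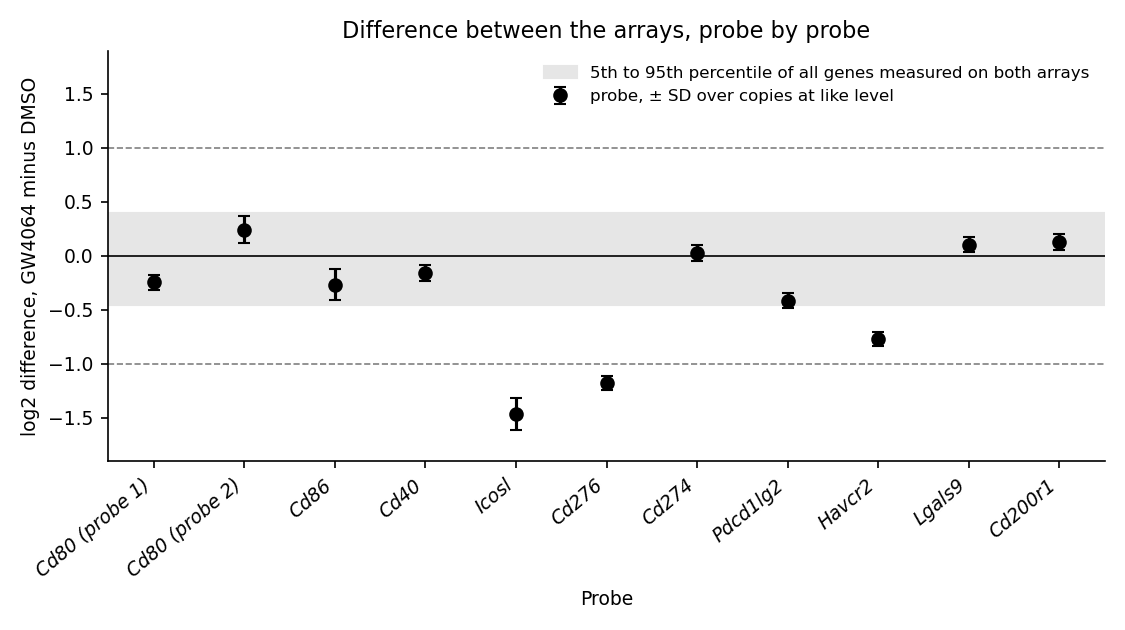
The log2 difference (GW4064 minus DMSO) of each member probe, with bars for the SD over copies of probes printed 10 times at a like level, dashed lines at 2-fold and a gray band from the 5th to the 95th percentile of all genes measured on both arrays (-0.45 to 0.40). Icosl, Cd276 and Havcr2 lie below the band and the other 8 probes lie within it.

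Cd274 and Pdcd1lg2 encode PD-L1 and PD-L2, and they are neighboring protein-coding genes in the mouse annotation. Cd274 had a signal of 3836 ± 384 with DMSO and 4087 ± 409 with GW4064, a log2 difference of 0.026, which is below the SD over copies of 0.074. Its spot had 3 other spots with 8-fold differences within 300 µm. Pdcd1lg2 had a signal of 1088 ± 109 with DMSO and 855 ± 85.6 with GW4064, a log2 difference of -0.41, with an SD over copies of 0.067. The signal of the PD-L2 gene was thus lower and that of its neighbor about level, although the difference of Pdcd1lg2 was short of 2-fold. Pdcd1lg2 was number 725 of 12578 genes in order of decrease. Of the 2188 probes at a like level, 6.90% differed at least as far in either direction. The log2 difference of Pdcd1lg2 stayed between -0.60 and -0.26 under the other ways of processing.

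PD-L2 is also a marker of macrophages exposed to IL-4, and it stood apart in direction from most of that list. Of 8 such markers, 6 were higher with GW4064 (5 when centered on spike-in RNA), and the median log2 difference was 0.53. Arg1, an arginase, had 3.82, the lectin genes Mgl2 and Clec10a had 0.99 and 0.84, and Retnla had 0.91. The chemokine gene Ccl24 had 0.21 and Chil3 had 0.066. The other marker below 0 was Mrc1, which encodes CD206, with -0.34. Pdcd1lg2 is counted in this list as well as among the 10 genes.

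Havcr2 encodes TIM-3, and Lgals9 encodes galectin-9, which is known to bind it. Havcr2 had a signal of 966 ± 96.7 with DMSO and 592 ± 59.4 with GW4064, which made it 1.71-fold lower, a log2 difference of -0.77 against an SD over copies of 0.065. It was number 283 of 12578 genes in order of decrease. Havcr2 was short of 2-fold under every way of processing, with log2 differences between -0.96 and -0.72. Lgals9 had a signal of 1525 ± 153 with DMSO and 1717 ± 172 with GW4064, a log2 difference of 0.11 with overlapping error ranges, and of -0.085 when the arrays were centered on spike-in RNA. At a threshold of 1.5-fold, Havcr2 joined Icosl and Cd276 to make 3 of 10 members lower and 0 higher, where 5.56% of all genes measured were lower and 4.39% higher, and 3.43% and 2.42% of those measured on both arrays.

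Cd200r1 encodes the receptor for CD200, an inhibitory receptor of myeloid cells. Its signal was 4338 ± 434 with DMSO and 4976 ± 498 with GW4064, a log2 difference of 0.13 against an SD over copies of 0.074. Centering the arrays on spike-in RNA moved the median of all genes to -0.18. The difference of Cd200r1 was then -0.059, and that of Cd274 was -0.16, so that the direction of Cd274, Lgals9 and Cd200r1 depended on the centering. The spot for Cd200r1 had 5 other spots with 8-fold differences within 300 µm. Its ligand gene Cd200 had a signal of 3059 with DMSO and 3597 with GW4064, a log2 difference of 0.17.

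**Figure D3:**
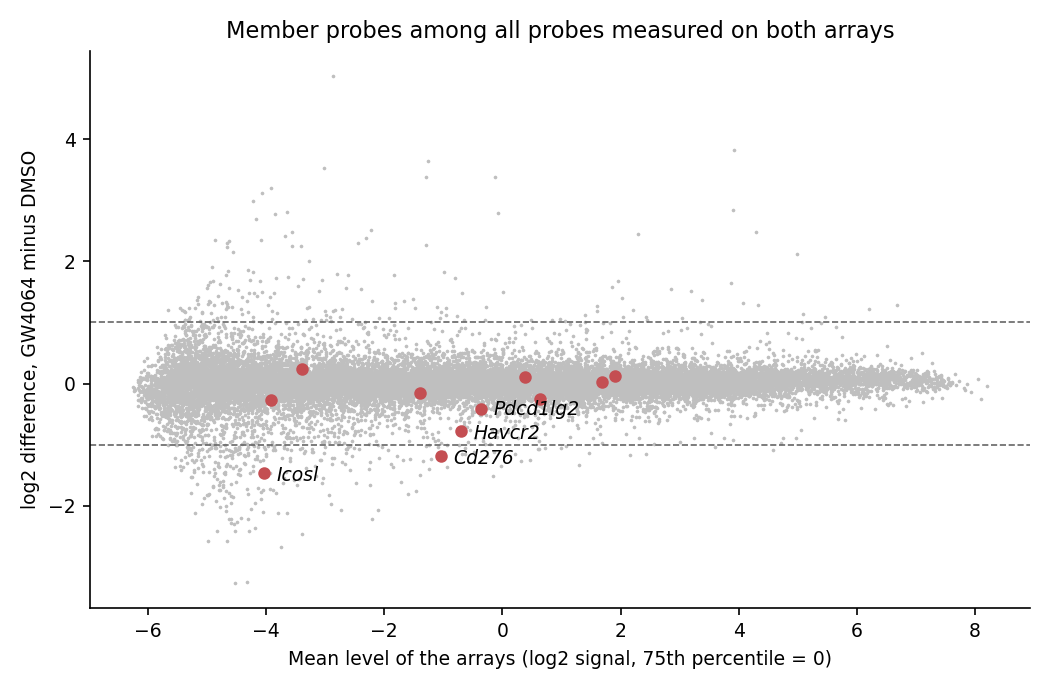
The log2 difference (GW4064 minus DMSO) against the mean level of the arrays (log2 signal with the 75th percentile at 0) for all probes well above background on both arrays (gray) and the 11 member probes (red), with dashed lines at 2-fold. Cd276 lies at a level where few probes pass 2-fold, and Icosl lies at a low level where the gray points spread more widely.

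Genes that work beside the members were described from lists written from general knowledge. Of 9 other B7 and butyrophilin family genes, 3 were above background, and 0 were 2-fold higher or lower. Vsir, which encodes the inhibitory ligand VISTA, had a mean of -0.12 over both probes, and Btn1a1 had 0.096. Vtcn1, which encodes B7-H4, and Vsig4 were not above background on either array. The remaining measured gene, Ildr2, had -0.031.

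TNF superfamily ligands that act on T cells were listed with the receptor HVEM. Of 8 genes 5 were measured, and 4 of them had a probe well above background on both arrays. Over those probes the 4 genes had log2 differences above 0 with a median of 0.28, and 0 passed 2-fold. Tnfsf4, which encodes OX40 ligand, had a signal of 40.4 with GW4064 and 14.5, not well above background, with DMSO. Against 15.7, the lowest DMSO signal that was well above background, it was 2.45-fold higher, a bound that rests on dim spots. It was measured only because of its signal with GW4064. Tnfsf9, which encodes 4-1BB ligand, had 118 with DMSO and 197 with GW4064, a log2 difference of 0.67. Tnfsf14, the ligand gene LIGHT, had 28.6 with DMSO and 34.3 with GW4064, a log2 difference of 0.20. Tnfsf15 had 33.8 with DMSO and 38.2 with GW4064, a log2 difference of 0.11. The differences of Tnfsf14 and Tnfsf15 were below the SD over copies, of 0.30 and 0.23. The probes for Tnfrsf14, the HVEM gene, had 0.37 and, as a bound from a spot measured with GW4064 only, 0.74. Apart from the signals of Tnfsf9, all signals of this list were at or below 44.9, where the SD over copies was between 0.23 and 0.31 for the probes of Tnfsf4, Tnfsf14, Tnfsf15 and Tnfrsf14. When centered on spike-in RNA, 4 of the 5 genes were higher and 1, Tnfsf15, was lower.

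Of 17 other checkpoint ligands and T cell contact genes, 13 were measured, with 6 higher, 7 lower (2 and 11 when centered on spike-in RNA) and 0 past 2-fold. The median was -0.0044. Fgl2, a secreted inhibitor of T cells, had the largest difference with -0.65, at a spot with 5 other 8-fold differences within 300 µm. Slamf1, a receptor of immune cells that binds itself, was next with -0.43, from 47.4 with DMSO to 36.8 with GW4064. Nectin2, whose product binds the T cell receptors CD226 and TIGIT, had a mean of 0.41 over 2 probes with 0.36 and 0.45.

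Of 17 T cell partners of these ligands, 9 had no measured value, among them Ctla4, Icos, Pdcd1 and Cd40lg, the partner genes of most members. Cd28, whose product binds CD80 and CD86, did have a signal, of 1249 with DMSO and 1345 with GW4064, a log2 difference of 0.041 (below 0 when centered on spike-in RNA). Of the 8 measured, Tigit passed 2-fold as higher, and Cd27 and Tnfrsf9 as lower. Each of these 3 rested on a spot with 3 or more other 8-fold differences nearby. Tigit had a signal of 47.1 with GW4064 and 4.82 with DMSO, not well above background there. Cd27 had 132 with DMSO and 11.2, not above background, with GW4064, and its other probe was above background on neither array. For Tnfrsf9 the probes disagreed, with -0.058 at signals of 4888 and 4913 and, as a bound, -3.21 at a dim spot. With such areas left out, 5 genes of the list remained measured and 0 passed 2-fold.

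CD40 signaling genes differed little as a group. All 11 were measured, with 3 higher, 8 lower (2 and 9 when centered on spike-in RNA), 0 past 2-fold and a median of -0.060. The largest values were those of the adaptor genes Traf2 and Traf3. Traf3 had 0.34, and the probes for Traf2 had -0.055 at signals of 7419 and 7476 and 1.34 at signals of 24.7 and 65.2. Nfkb2 and Relb, the subunit genes of the noncanonical NF-κB pathway that CD40 engages, had -0.060 and -0.00029.

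Among 12 genes of CD200R1 and TIM-3 signaling and their relatives, 9 were measured, 5 higher and 4 lower (2 and 7 when centered on spike-in RNA), with a median of 0.0068. Cd200r2 was 5.34-fold higher, from 40.7 to 227, at a spot with 6 other 8-fold differences within 300 µm, and it had no probe outside such areas. Cd200r4 had -0.36 and Cd200r3 had 0.35. The receptor genes of this family are close relatives, and whether the probes tell them apart was not tested. The TIM genes Havcr1, Timd2 and Timd4 were not above background. Dok1 and Dok2, adaptors of CD200R1, had -0.12 and 0.10, and Inpp5d had -0.25.

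**Figure D4:**
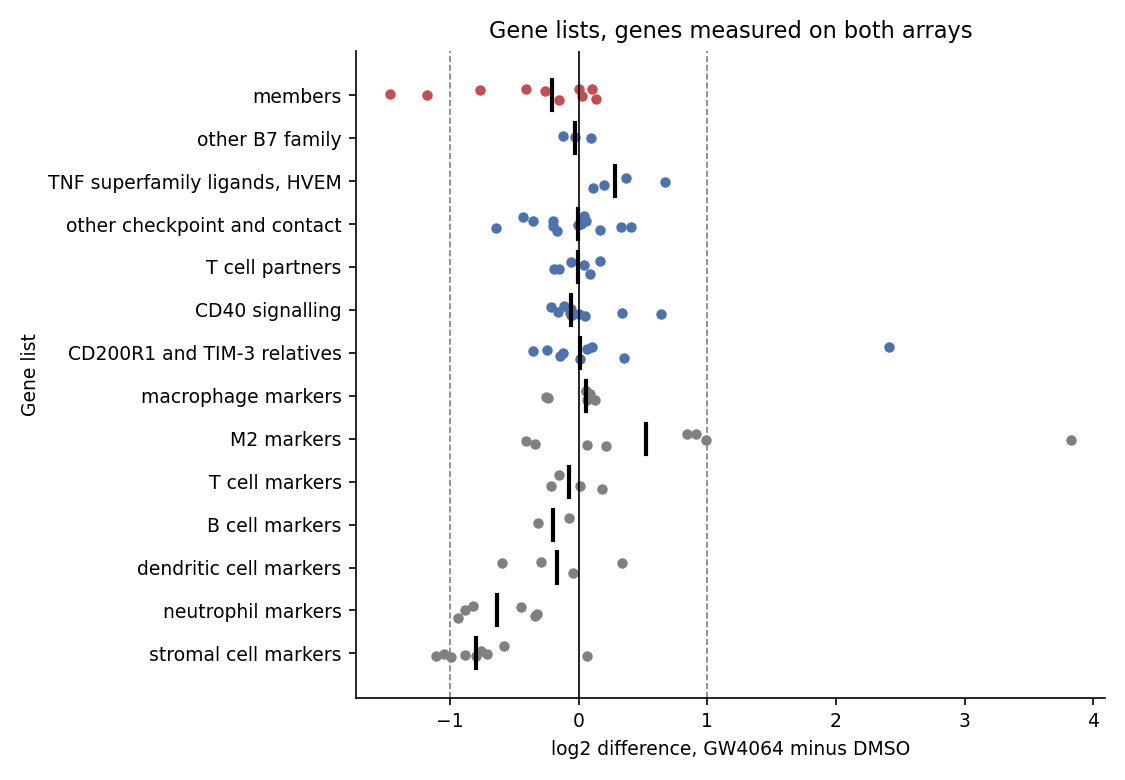
The log2 difference (GW4064 minus DMSO) of each gene in the members (red), the lists of related genes (blue) and the cell type marker lists (gray), from probes well above background on both arrays, with a black bar at the median of each list and dashed lines at 2-fold. The medians are -0.21 for the members, 0.28 for the TNF superfamily list, -0.64 for neutrophil markers and -0.80 for stromal cell markers.

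The cell type was checked against markers. All 7 macrophage markers with a probe were above background on both arrays, among them Adgre1 (F4/80), Csf1r and Mertk. The log2 differences of the 7 lay between -0.25 and 0.13. All 7 were below 0 when centered on spike-in RNA, which moved the median of all genes to -0.18. The dendritic cell genes Cd209a, Xcr1 and Clec9a, the B cell genes Cd79a, Pax5 and Fcer2a, and the T cell genes Cd3d, Cd3g and Cd8a were not above background. Other markers of these cells did have signals, in 4 of 8 T cell, 3 of 7 B cell and 5 of 8 dendritic cell genes. The T cell genes Cd3e, Lck and Zap70 had 209, 163 and 66.0 with DMSO, and Cd4 had 1303. Zap70 and Cd4 each had another probe that was above background on neither array. That for Cd4 had 10.3 with DMSO and 11.5 with GW4064. Past 2-fold were Ms4a1, a B cell gene at 35.8 with DMSO and not above background with GW4064, and Flt3, a dendritic cell gene at 81.5 with GW4064 and not above background with DMSO. The spot for Flt3 had 3 other 8-fold differences within 300 µm, and with such areas left out 0 dendritic cell genes passed 2-fold. Another probe for Flt3 was above background on neither array. Itgax, which macrophages also carry, had 186594 with DMSO, and Siglech had 36735 from 1 of its probes, the other being not above background. Stromal cell and neutrophil markers were mostly lower with GW4064, where 48.2% of all genes measured were lower. Of 10 stromal cell markers 9 were measured and 8 were lower, with a median log2 difference of -0.80, and the summed signal of their probes went from 40569 to 22517. Postn and Acta2 were 2-fold or more lower, with -1.11 and -1.05, and the collagen gene Col1a2 had -0.99. Lum was not above background on either array, and Pdgfra had 0.065 (below 0 when centered on spike-in RNA, as were all 9). Of 7 neutrophil markers 6 were measured and all 6 were lower, with a median of -0.64 and a summed signal that went from 13805 to 8952. Mpo and S100a9 had -0.94 and -0.88. Fewer cells of a type and less RNA per cell cannot be told apart in bulk RNA. Whether such cells were present, and what part they had in the lower signals of Icosl, Cd276 and Havcr2, was not tested.

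**Figure D5:**
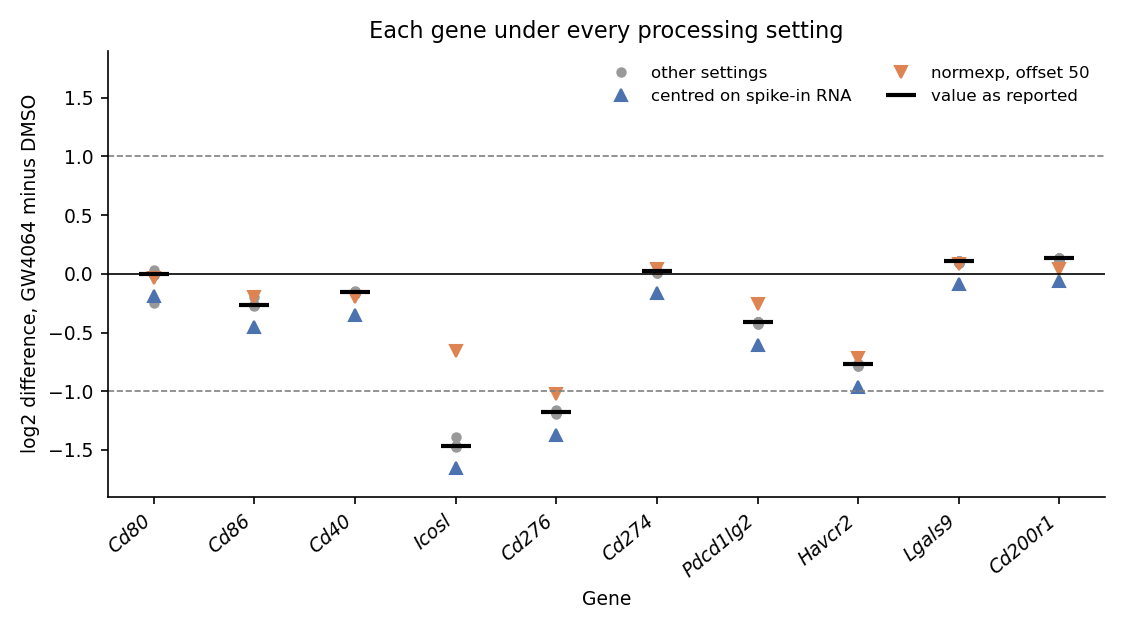
The log2 difference (GW4064 minus DMSO) of each gene as reported (black bars), with the arrays centered on spike-in RNA (blue triangles), after normexp correction (orange triangles) and under the other settings (gray), with dashed lines at 2-fold. Cd276 stays below -1 under every setting, Icosl is at -0.65 after normexp, and Cd274, Lgals9 and Cd200r1 lie below 0 when centered on spike-in RNA.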

How the data were processed

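Total RNA of BMDMs under M2 conditions was labeled with Cy3 and hybridized to Agilent mouse arrays, 1 per condition, on the same slide and in the same scan. The authors deposited the intensity of each spot from Agilent Feature Extraction 10.7.1.1 (submitters' processing notes), background-subtracted and detrended but not scaled between arrays. They also deposited a log2 table, whose differences equaled those computed here for the member probes apart from a constant of 0.0022. Its columns had medians of 0.035 and -0.051, and the baseline of its centering is unknown.

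Signals were put on the log2 scale and shifted so that the 75th percentile of the 43020 non-control spots (signals of 1209 and 1265) was 0. Marked spots were left out. A probe well above background on 1 array only gave a bound against the lowest such signal (15.7 and 15.1), and a gene is the mean of its probes. Probes were matched to RefSeq transcripts of GRCm38.p6 without versions for 26581 of 39429. The array was designed on another build, so no coordinates are given. No test was possible. The members and lists were chosen with earlier results of these data known. Every member was named, and of each other list the genes past 2-fold or, where fewer than 2 were, up to 2 with the largest difference on both arrays. Marker genes were to be named where they decide whether a cell type is present. Other genes of the lists, Nectin2 and the stromal and neutrophil genes among them, were named with their values known. A marker gene of the lists is not reported here. The steps were tested on simulated data in which brighter probes were changed 4-fold. That simulation did not cover changes in dim probes, smaller changes, bounds from 1 array or variation between cultures. Alternatives were quantile normalization, centering on the median or spike-in RNA, loess (span 0.3), the deposited table, normexp, marked spots kept, filters on dim probes, the brightest probe, areas of 8-fold differences left out, and thresholds of 1.5-fold and 4-fold. Python 3.11.15, R 4.3.3, limma 3.58.1 (normexp) and statsmodels 0.14.6 (loess) were used.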

Additional observations from a re-analysis of the deposited data

How the results depend on the processing

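No paired analysis was possible because DMSO and GW4064 were each measured on a single array. The count of members 2-fold or more lower was 2 and that of members 2-fold or more higher was 0 under 10 of the 11 alternatives. The exception was the normexp correction, with 1 lower (Cd276) and 0 higher. Over all genes the share 2-fold or more lower ran from 0.473% after normexp to 3.86% with spike-in centering. The share 2-fold or more higher ran from 0.532% after normexp to 3.66% in the deposited table. At a threshold of 1.5-fold 3 were lower, at 4-fold 0 were lower, and 0 were higher at either. The share of all genes past 4-fold was not computed. The median log2 difference of the members was -0.21 as reported, -0.40 when centered on spike-in RNA, which moved the median of all genes to -0.18, and -0.34 with areas of 8-fold differences left out, where Cd274 and Cd200r1 had no probe and 8 genes remained. Its other values were between -0.25 and -0.17. Cd80 had -0.25 when only its brightest probe was used. Dim signals limit what Icosl and Cd86 can show, and a lack of further arrays limits all differences.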
